A study of Mus musculus with 33 samples.

Results

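The 37 genes described here encode enzymes and carriers that make, use or export mitochondrial citrate: the pyruvate carrier and pyruvate dehydrogenase, the tricarboxylic acid (TCA) cycle, the reactions that feed or drain the cycle, and carriers of citrate, malate and oxoglutarate. They were chosen by name from the 55401 genes of a count table of the mouse frontal bone of the calvaria, and all 37 were found by symbol. Polyadenylated RNA was sequenced from embryos at 11 stages, with 3 libraries at each and 33 in all: the stages follow each other in steps of 0.5 days between E8.5 and E12.5 and end with E13.5 and then E14.5. The labels give no genotype, treatment or strain, so age is the only difference between the groups that they name. A difference in collection or sequencing that ran with stage could not be told apart from age. The number of embryos or litters behind a library is likewise not stated. The p-values below therefore measure the spread between these libraries, which may be partly technical. The study's title concerns vesicles that carry citrate and promote mineralization, and the comparison of stages asks how gene expression in the frontal bone changes as it forms.

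Pyruvate made from glucose enters mitochondria through a carrier built from Mpc1 and Mpc2, and the pyruvate dehydrogenase complex converts it to acetyl-CoA. Citrate synthase joins acetyl-CoA to oxaloacetate, and the cycle then oxidizes citrate step by step back to oxaloacetate. Anaplerosis is the refilling of the cycle, for example by pyruvate carboxylase, and cataplerosis is the withdrawal of its intermediates, among them citrate that leaves through the carrier Slc25a1. Bone is rich in citrate, and osteoblasts are known to release it into the matrix.

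Total counts ran from 14516518 to 19964404 per library (median 17081223). Levels are given as CPM, reads of a gene relative to the size of its library, corrected by trimmed mean of M values (TMM), and changes as log2 fold changes with standard errors from a quasi-likelihood fit of all 20073 genes that passed a filter on low counts. A change passed at a Benjamini-Hochberg adjusted p below 0.05. All 37 genes passed the filter, 17 counts in 1 library being the lowest for Mpc1 and 3 for Me3. Libraries of one stage agreed least at E12 (correlations of log2 CPM of 0.9649 to 0.9856) and E13.5 (0.9749 to 0.9921), against 0.9879 or more elsewhere. Ribosomal protein genes took 4.09% to 8.32% of counts at E12 against 2.3% to 5.79% in all others, where 5.79% belonged to E13.5 replicate c. The labelled tissue was checked against 10 osteoblast genes, of which 8 rose to E14.5 and 2 did not pass. Their summed level was 157 to 163 CPM at E8.5, where Dmp1 was at 0, and 4195 to 4435 CPM at E14.5. Ibsp and Dmp1 were at 0 in all libraries of E9 and E9.5, so the early libraries lack defining genes of bone. The E11.5 libraries stood out of order with those of E12 and E12.5: Ibsp, a bone matrix gene, had a mean of 15.1 CPM there against 0.037 at E12 and 0.204 at E12.5, and the first principal component of all genes was at 84.1 against 22.1 and 41.9, with 34.6 at E11 and 100.1 at E13.5. Which of these labels is out of place was not tested, and E12 stood before E11 on that component. Values at E11.5, E12 and E12.5 below, and comparisons with E12.5, are given as those labels'. The part of this in them was not tested.

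Promoter windows of RefSeq (GRCm38.p6, 250 bases before to 50 after a start) were matched for 34 of the 37 genes, with 43 windows. The motif CACGTG, the E-box letters that MYC proteins are known to bind, was searched on both strands, along with 4 other motifs. It stood in 5 of the 43 windows, or 11.63%, against 7.15% of all 32851 windows. Those windows belong to Ogdh (3 of its starts), Pcx and Slc25a1. The stretches around it are shown with the motif in capitals, for Ogdh at chr11:6292040-6292099 and chr11:6292397-6292456 (both plus strand), Pcx at chr19:4510222-4510263 (plus) and Slc25a1 at chr16:17928419-17928469 (minus).
Ogdh, first stretch: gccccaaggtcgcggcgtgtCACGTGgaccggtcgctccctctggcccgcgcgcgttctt
Ogdh, next stretch: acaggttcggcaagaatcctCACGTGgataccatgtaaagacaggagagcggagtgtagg
Pcx: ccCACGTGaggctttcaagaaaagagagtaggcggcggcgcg
Slc25a1: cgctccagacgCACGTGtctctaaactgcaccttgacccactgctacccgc
AAGATGGC, letters known from YY1 sites, stood in 1 window (Idh3g, 2.33% against 2.75% of all windows). CCGGAAGT, an ETS motif, stood in the window of Dlst (2.33% against 3.89%), and TCAAGGTCA, a motif of estrogen-related receptors, in that of Sdhd (2.33% against 0.42%). The NRF1 motif stood in none of the 43, against 0.97% of all windows. These motifs too were searched on both strands, and no window of the 37 genes held more than 1 of the 5 motifs. A match is a run of letters only, and no binding was measured.

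Most of the 37 genes lost expression between the first stage and the last. Comparing E14.5 with E8.5, 24 fell, 5 rose and 8 did not pass, against 33.5% lower and 41.1% higher (74.6% in either direction) among all genes tested. The median log2 fold change was -0.49 over the 37 genes and 0.16 over all genes. The genes that rose were Mpc1, Mpc2, Pck2, Idh1 and Me1, and the largest falls were those of Got2, Got1, Me2 and Slc25a1. No library of E14.5 overlapped those of E8.5 for 32 of the genes, 26 of them lower (36.6% of all genes) and 6 higher (43.8% of all genes). Scaling mattered: with library totals alone the median of all genes shifted by 0.43, the share of calls that were higher went from 55% to 71.3% of all genes called, and of the 37 genes 8 were higher and 16 lower. With a trend on gene length removed that share was 47.4% and the median shifted by -0.20, with 4 of the 37 genes higher and 30 lower. Without the libraries of E11.5, E12 plus E13.5, 6 were higher and 27 lower, and with only the libraries compared 6 and 28. Summed over the 37 genes, the level was 5424 ± 115 CPM (SD, n = 3) at E8.5 and 3542 ± 131 at E14.5, and the share of raw counts was 0.469% ± 0.0071 and 0.413% ± 0.012. In whole tissue, fewer cells of a type and less RNA per cell cannot be told apart.

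**Figure D1:**
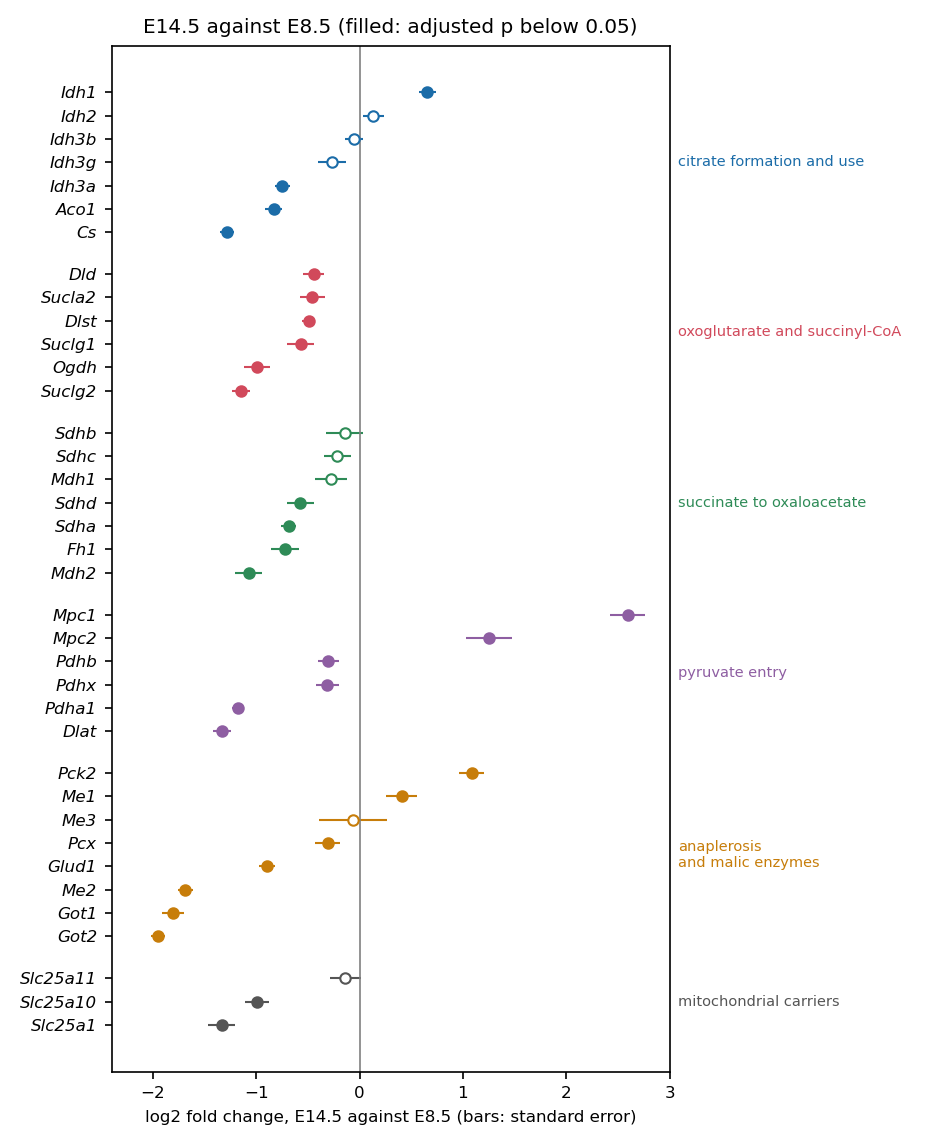
Log2 fold change of each of the 37 genes at E14.5 against E8.5 (horizontal axis, bars are standard errors), grouped by role; filled points passed at an adjusted p below 0.05. Mpc1 stands farthest to the right at 2.59 and Got2 farthest to the left at -1.95.

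Markers of other cells moved between the same stages. Of 10 proliferation genes 9 were lower at E14.5 (summed level of 5015 to 5087 CPM at E8.5 and 1768 to 1829 at E14.5), and of 9 neural progenitor genes 7 were lower and 2 higher (748 to 773 CPM and 246 to 261 CPM). All 8 neuron genes (159 to 165 CPM and 616 to 636 CPM), all 8 skeletal muscle genes (11.97 to 13.1 CPM and 356 to 400.0 CPM) and all 8 macrophage genes (1.23 to 1.99 CPM and 151 to 170 CPM) were higher. The ends do not show the middle of the course, where both neural lists stood above both ends. The neuron genes summed to 2893 to 2955 CPM at E11.5. Neural progenitor genes summed to 1895 to 1938 CPM at E10.5 and 1863 to 2165 CPM at E12. Of 7 tested red cell genes other than globins 6 were lower (131 to 136 CPM and 56.0 to 60.5 CPM), and of 16 tested glycolysis genes 13 were lower and 1 higher (19480 to 21010 CPM and 3839 to 4343 CPM). At E8.5 the muscle gene Myog and the macrophage genes C1qa and Tyrobp were at 0, and no gene of these lists was at 0 at E14.5. Their part in the changes of the 37 genes was not tested.

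The genes of pyruvate entry split by step. Both carrier genes rose while all 4 genes of the dehydrogenase complex fell. Mpc1 (chromosome 17, 8282904 to 8297661, plus strand) measured 1.19, 2.06 and 1.58 CPM in the E8.5 libraries and 9.46, 11.3 and 8.51 CPM in those of E14.5. All 3 late libraries lay above all early ones, a rise of 2.59 ± 0.17 on the log2 scale (6.04-fold, adjusted p = 1.96e-14). Mpc1 shares 261 bases without a mismatch with the processed pseudogene Mpc1-ps, which held 4020 counts over all libraries against 3142 for Mpc1. The counting may have divided reads between them, or left out reads that match both. Mpc1-ps measured 3.02, 2.55 and 2.16 CPM in the E8.5 libraries and 11.2, 10.8 and 9.88 CPM in those of E14.5, and the sum of the 2 genes also rose, by 2.28 ± 0.13 (adjusted p = 4.66e-16). The sum cannot restore reads that were left out of both. The level of Mpc1 and the size of its rise are therefore uncertain. In the counts at hand its direction was the same with and without the copy. Mpc2, which forms the carrier together with Mpc1, measured 15.2, 13.3 and 13.1 CPM in the E8.5 libraries and 32.2, 35.1 and 31.8 CPM in those of E14.5. Its groups did not overlap either, and the rise was 1.25 ± 0.22 (adjusted p = 9.69e-06).

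Pdha1 encodes the catalytic alpha subunit of pyruvate dehydrogenase and lies on chromosome X (160122209 to 160138413, minus strand), where Map3k15 overlaps it on the other strand. Its level was 424, 419.5 and 433 CPM in the E8.5 libraries and 189.7, 190.6 and 183 CPM in those of E14.5. The late libraries sat below the early ones with a wide gap, a fall of -1.18 ± 0.06 (2.27-fold lower, adjusted p = 8.95e-18). The lowest libraries were those of E11.5, a stage out of order with E12 and E12.5 by other genes, at 136, 142 and 139 CPM. The level rose from E12.5 to E14.5 by 0.23 ± 0.06 (adjusted p = 0.000606). Dlat, the acetyltransferase core of the complex, measured 85.2, 83.6 and 91.7 CPM in the E8.5 libraries and 29.1, 36.4 and 38.1 CPM in those of E14.5 (-1.33 ± 0.09, adjusted p = 3.10e-14). Pdhb, the beta subunit, and Pdhx, the protein that anchors the shared dehydrogenase, fell less, by -0.30 ± 0.10 and -0.31 ± 0.11 (adjusted p = 0.00675 and 0.0107). Scaled by library totals alone, both had values above 0, at 0.13 and 0.12, and neither passed.

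Among genes of citrate formation and use, 3 of 7 fell, 1 rose and 3 did not pass. Cs, citrate synthase (chromosome 10, 128337734 to 128362479, plus strand), measured 360.2, 345 and 349 CPM in the E8.5 libraries and 152, 142 and 139 CPM in those of E14.5. Every late library was below every early one, and the fall was -1.28 ± 0.07 (2.43-fold lower, adjusted p = 1.43e-16). From E8.5 to E10.5 the value was -0.04 ± 0.07 (adjusted p = 0.614), or -0.24 with a trend on gene length removed (adjusted p = 0.000275): Cs was at 387 ± 7.4 CPM at E9, 273 ± 8.5 at E10 and 341 ± 4.4 at E10.5. The level fell by -0.52 ± 0.07 from E10.5 to E12.5 and by -0.72 ± 0.07 from E12.5 to E14.5 (adjusted p = 2.59e-07 and 1.85e-10). Aco1, the cytosolic aconitase that also acts as an iron sensor, fell by -0.83 ± 0.08 (adjusted p = 3.54e-10), from 149, 141 and 141 CPM to 88.3, 76.5 and 77.5 CPM.

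The isocitrate dehydrogenases did not move together. Idh1, the cytosolic NADP enzyme (chromosome 1, 65158616 to 65186500, minus strand), measured 103, 105 and 111 CPM in the E8.5 libraries, 289, 274 and 291 CPM at E11 and at 164, 163 and 176 CPM at E14.5. The E11 libraries lay far above both ends, the ends did not overlap, and E12 was higher still in its mean but ran from 270 to 378 CPM. Idh1 rose by 1.06 ± 0.08 to E10.5 and fell by -0.29 ± 0.08 from E12.5 to E14.5 (adjusted p = 2.77e-12 and 0.00249), for a net rise of 0.66 ± 0.08 (adjusted p = 1.26e-08). The late fall did not pass without the filter on low counts (-0.23, adjusted p = 0.0972). Idh2, the mitochondrial NADP enzyme, measured 275, 271 and 262 CPM in the E8.5 libraries and 322, 284 and 281 CPM in those of E14.5. The late libraries all lay above the early ones, yet the difference of 0.13 ± 0.10 did not pass (adjusted p = 0.241). It passed once all libraries of E11.5, E12 plus E13.5 were left out, at 0.15 (adjusted p = 0.0128), and with library totals alone, at 0.57 (adjusted p = 1.72e-06). Of the NAD enzyme, the catalytic subunit Idh3a fell by -0.75 ± 0.07 (adjusted p = 1.75e-10). Its partner subunits Idh3b, which overlaps Nop56 on the other strand, and Idh3g had values of -0.05 ± 0.09 and -0.27 ± 0.13 (adjusted p = 0.592 and 0.0697). Idh3g passed as lower when E12 replicate c, E13.5 replicate c or E14.5 replicate a was left out (adjusted p = 0.0416, 0.0162 and 0.0257), and also without those 3 stages (-0.25, adjusted p = 0.00183) or with only the libraries compared (adjusted p = 0.00109). Idh3b stood at 0.38 with library totals alone (adjusted p = 0.000163).

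All 6 genes from oxoglutarate to succinate fell. Suclg2, the GTP-forming beta subunit of succinyl-CoA ligase, measured 109, 113 and 119.8 CPM in the E8.5 libraries and 51.3, 52.2 and 50.5 CPM in those of E14.5, without overlap (-1.15 ± 0.09, adjusted p = 4.80e-13). Its processed copy Gm15163 held 5.31% as many counts, and the sum of the 2 genes gave -1.15 ± 0.08. Sucla2, the ATP-forming beta subunit, and Suclg1, the shared alpha subunit, fell by -0.46 ± 0.12 and -0.57 ± 0.13 (adjusted p = 0.00164 and 0.000335). Ogdh, the first component of oxoglutarate dehydrogenase (chromosome 11, 6291633 to 6356642, plus strand), measured 155, 151 and 152 CPM in the E8.5 libraries and 82.8, 75.1 and 71.98 CPM in those of E14.5. The fall was -0.99 ± 0.12 (adjusted p = 2.98e-08). Dlst and Dld, the second component and the dehydrogenase that several complexes share, fell by -0.49 ± 0.07 and -0.45 ± 0.10 (adjusted p = 7.58e-08 and 0.000243). Under scaling by library totals alone, Sucla2, Suclg1, Dlst and Dld stayed below 0 but did not pass (-0.02, -0.14, -0.06 and -0.01).

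Of the 7 genes from succinate to oxaloacetate 4 fell and 3 did not pass. Mdh2, the mitochondrial malate dehydrogenase (chromosome 5, 135778480 to 135790398, plus strand), measured 345, 332 and 303 CPM in the E8.5 libraries and 166, 149 and 151 CPM in those of E14.5. The groups were far apart, a fall of -1.08 ± 0.13 (adjusted p = 8.53e-09). Mdh1, its cytosolic counterpart, measured 325, 297 and 299 CPM in the E8.5 libraries and 263, 238 and 258 CPM in those of E14.5. Its late libraries were also all lower, but the difference of -0.28 ± 0.16 did not pass (adjusted p = 0.104). It passed without E12 replicate c or without E13.5 replicate c (adjusted p = 0.0213 and 0.0374), with all libraries of E11.5, E12 plus E13.5 left out (-0.26, adjusted p = 1.48e-05) and with only the libraries compared (adjusted p = 6.36e-05). Of succinate dehydrogenase, the flavoprotein subunit Sdha and the membrane subunit Sdhd fell by -0.69 ± 0.07 and -0.57 ± 0.13 (adjusted p = 6.57e-10 and 0.000352). The iron-sulfur subunit Sdhb and the membrane subunit Sdhc had values of -0.15 ± 0.18 and -0.22 ± 0.13 (adjusted p = 0.468 and 0.126), and Sdhc passed without E13.5 replicate c (adjusted p = 0.0401), with the 3 stages left out (-0.20, adjusted p = 0.000952) and with only the libraries compared (adjusted p = 0.00163). Sdhd did not pass under scaling by library totals alone (-0.14, adjusted p = 0.244). Fh1, fumarase, fell by -0.72 ± 0.14 (adjusted p = 2.90e-05).

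Transaminases and malic enzymes held both large falls and rises. Got2, the mitochondrial aspartate transaminase of the malate-aspartate shuttle, measured 268, 265 and 266 CPM in the E8.5 libraries and 71.9, 68.2 and 66.4 CPM in those of E14.5. No other of the 37 genes fell as far between these stages (-1.95 ± 0.07, 3.87-fold lower, adjusted p = 5.54e-21). Got1, the cytosolic enzyme of the same shuttle, measured 79.97, 72.7 and 69.3 CPM in the E8.5 libraries and 25.3, 20.1 and 18.2 CPM in those of E14.5 (-1.81 ± 0.10, adjusted p = 1.13e-15). Neither gene's late libraries came near the early ones. Glud1, which links glutamate to oxoglutarate, fell by -0.90 ± 0.08 (adjusted p = 2.86e-11).

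Me2, a mitochondrial malic enzyme that makes pyruvate from malate, measured 145, 144 and 145 CPM in the E8.5 libraries and 43.9, 44.8 and 46.2 CPM in those of E14.5, a fall of -1.68 ± 0.07 (3.21-fold lower, adjusted p = 1.30e-18). Late and early libraries were far apart. Me1, the cytosolic malic enzyme that supplies NADPH, measured 10.8, 9.72 and 11.51 CPM in the E8.5 libraries, 5.39, 7.16 and 5.63 CPM at E12.5 and at 12.7, 14.8 and 15.1 CPM at E14.5. It fell from E10.5 to E12.5 by -1.02 ± 0.16 and rose from E12.5 to E14.5 by 1.22 ± 0.16 (adjusted p = 6.45e-06 and 1.12e-07). Its net rise of 0.41 ± 0.15 (adjusted p = 0.0173) did not pass without E8.5 replicate b, E14.5 replicate b or E14.5 replicate c (adjusted p = 0.078, 0.0521 and 0.0618), nor with a trend on gene length removed (0.20, adjusted p = 0.209). Me3, the other mitochondrial malic enzyme, was near the floor of detection at 0.18 to 2.18 CPM over all libraries, overlaps antisense transcripts and is uncertain; it also dipped at E12.5 (-1.49 ± 0.37 from E10.5, then 1.37 ± 0.37 to E14.5; adjusted p = 0.00197 and 0.0026).

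Pcx and Pck2 act at opposite ends of oxaloacetate use. Pcx, pyruvate carboxylase, which makes oxaloacetate, measured 30.8, 29.5 and 30.5 CPM in the E8.5 libraries and 27.9, 22.3 and 23.1 CPM in those of E14.5 (-0.31 ± 0.12, adjusted p = 0.0238). The fall did not pass when E8.5 replicate a or c, or E14.5 replicate b or c, was left out (adjusted p = 0.073, 0.0502, 0.101 and 0.0838), with DESeq2 (adjusted p = 0.0581), or without the filter on low counts (adjusted p = 0.0839), and the value was 0.12 with library totals alone. Pck2, the mitochondrial phosphoenolpyruvate carboxykinase, which spends oxaloacetate (chromosome 14, 55540266 to 55551242, plus strand), measured 20.6, 20.4 and 17.9 CPM in the E8.5 libraries, 24.0, 20.9 and 24.5 CPM at E12.5 and at 43.9, 40.9 and 40.3 CPM at E14.5. The E12.5 libraries lay just above those of E8.5, and the late ones stood clear of both. The net rise was 1.09 ± 0.12 (2.12-fold, adjusted p = 3.67e-09), of which 0.85 ± 0.12 fell between E12.5 and E14.5 (adjusted p = 5.49e-07).

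Of the 3 mitochondrial carriers, 2 fell. Slc25a1, which exports citrate to the cytosol in exchange for malate (chromosome 16, 17925223 to 17928219, minus strand), measured 75.7, 81.1 and 77.2 CPM in the E8.5 libraries, 44.4, 43.8 and 50.5 CPM at E12.5, at 61.1, 56.0 and 89.2 CPM at E13.5 and at 30.6, 30.6 and 31.6 CPM at E14.5. The E14.5 libraries were the lowest of all 33, and the fall from E8.5 was -1.34 ± 0.13 (adjusted p = 1.77e-10). From E13.5 to E14.5 alone it was -1.15 ± 0.13 (adjusted p = 1.42e-08), after a rise of 0.57 ± 0.13 from E12.5 to E13.5 (adjusted p = 0.000416). From E12.5 to E14.5 the fall was -0.58 ± 0.13. The highest E13.5 library was replicate c, in which ribosomal protein genes took 5.79% of counts. Slc25a10, the dicarboxylate carrier, fell by -0.99 ± 0.11 (adjusted p = 6.15e-09). Slc25a11, which exchanges malate for oxoglutarate, had a value of -0.14 ± 0.15 (adjusted p = 0.404), and 0.29 with library totals alone (adjusted p = 0.0311).

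**Figure D2:**
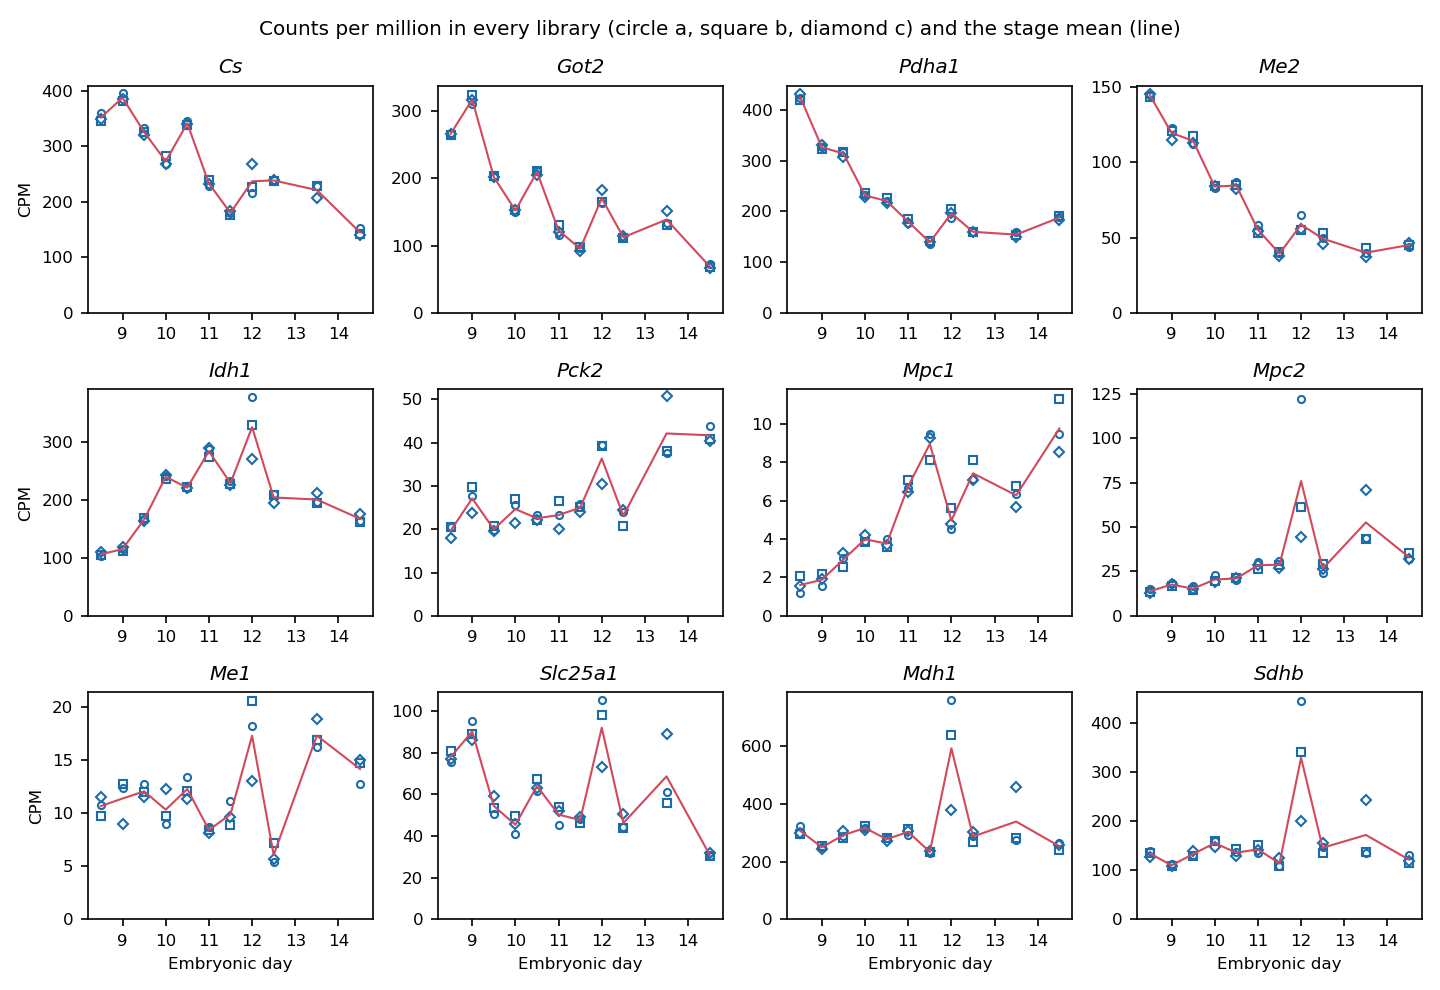
Level of 12 genes in every library, in CPM (vertical axes, each from 0), against embryonic day; circles, squares and diamonds are replicates a, b and c, and lines join stage means. Me2 and Pdha1 declined to their lowest means at E11.5. Cs and Got2 fell from E10.5 to E14.5, both after an earlier fall from E9 to E10. The rise of Pck2 after E12.5 and the spread of the E12 libraries for Mdh1 (379 to 761 CPM) and Sdhb (199.9 to 445 CPM) can also be read from it.

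All 37 genes differed over the 11 stages by the F-test, the largest adjusted p being 0.00471 for Me3, against 95.3% of all genes. The highest stage mean was 1.4 times the lowest for Idh3b and 6.06 times for Mpc1, with a median of 2.51 and 25 genes at 2 or more. Compared per kb of the exonic length in the table, the mean level over stages was highest for Sdhd (123 CPM per kb), Mdh1 (118, with 223 at E12) and Idh2 (111), and lowest for Me3 (0.0823), Mpc1 (2.54, uncertain because of its copy) and Me1 (3.07). The order varied by stage: at E14.5 Idh2 (114 CPM per kb) was above Sdhd (104) and Mdh1 (95.1).

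The course was also divided into 3 windows. From E8.5 to E10.5, 16 of the 37 genes fell and 3 rose, against 21.3% and 28.2% of all genes (49.5% in either direction), with a median of -0.17 against 0.09. Without overlap of libraries 23 were lower and 7 higher, against 29.4% and 35.3% of all genes. The largest falls were those of Pdha1 (-0.95 ± 0.06), Me2 (-0.77 ± 0.07), Suclg2 (-0.74 ± 0.09) and Got1 (-0.57 ± 0.10), with adjusted p of 9.35e-15, 2.08e-10, 1.79e-08 and 2.19e-05. The genes that rose were Mpc1 (1.22 ± 0.18, adjusted p = 1.58e-06), Idh1 and Mpc2 (0.60 ± 0.22, adjusted p = 0.0264). Mpc2 did not pass without E8.5 replicate b or c or E10.5 replicate b or c (adjusted p = 0.0692, 0.0791, 0.0547 and 0.0587). The count of falls depended on 1 library: it was 10 without E10.5 replicate c. Scaled by totals alone, 6 were lower and 8 higher, the median of all genes shifting by 0.17 and the share of calls that were higher going from 57% to 72.5%. With a trend on gene length removed 25 were lower, and that share was 40.4%.

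From E10.5 to E12.5, 16 genes fell and 1, Mpc1, rose (0.98 ± 0.15, adjusted p = 3.88e-06), against 17.2% and 18.8% of all genes (35.9% in either direction), with a median of -0.19 against 0.03. Without overlap 22 were lower and 2 higher, against 27.2% and 27.1%. Falls were led by Me3, Me1, Got2 (-0.90 ± 0.07, adjusted p = 2.21e-12) and Me2 (-0.78 ± 0.07, adjusted p = 4.34e-10). Mpc2 had a value of 0.34 ± 0.21 (adjusted p = 0.235) and passed without E12 replicate a (adjusted p = 0.0425), which made 2 genes higher. Scaling by totals alone took the share of calls that were higher from 52.2% to 68.3% of all genes called, and the median of all genes shifted by 0.12. From E12.5 to E14.5, 14 fell and 5 rose, against 28.6% and 25.3% (53.8% in either direction), with a median of -0.13 against -0.03. Without overlap 18 were lower and 6 higher, against 33.9% and 31%. The genes that rose were Me3, Me1, Pck2, Mpc1 (0.39 ± 0.14, adjusted p = 0.018) and Pdha1, and the largest falls were those of Got1 (-0.86 ± 0.10, adjusted p = 3.38e-08), Cs, Got2 (-0.71 ± 0.07, adjusted p = 1.86e-10) and Slc25a1 (-0.58 ± 0.13, adjusted p = 0.000347). Mpc1 did not pass in this window without E12.5 replicate a or c or E14.5 replicate b (adjusted p = 0.0667, 0.0663 and 0.146). With library totals alone 8 were lower and 6 higher, the share of calls that were higher being 58.3% in place of 46.9% and the median of all genes shifting by 0.14. Without the filter on low counts 9 were lower.

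Ogdh, Got2, Slc25a1, Dlat and Cs rose from E10 to E10.5 and fell again to E11, as did 3.28% of all genes (5.73% rose in the first step and 17.3% fell in the second). On the first principal component E10.5 stood before E10, at -46.4 against -37.9. The proliferation genes Rrm2, Plk1 and Mcm2 had means of 299.7, 114.7 and 406 CPM at E10 and 414, 169.5 and 499 CPM at E10.5, then 193.6, 90.5 and 300.4 CPM at E11. Of the same list Mcm7 was also higher at E10.5 than at E10, Mcm5 was level, and Mki67, Top2a, Ccnb1, Cdk1 and Bub1 were lower. Summed over the 10 proliferation genes the level was 4710 ± 32 CPM at E10, 4723 ± 55 at E10.5 and 3373 ± 50 at E11. The part of these genes was not tested. Ogdh was at 179, 209 and 206 CPM at E9, at 104, 109.5 and 111 CPM at E10 and at 163, 162 and 168 CPM at E10.5. The 3 groups did not overlap, and the step from E10 to E10.5 was 0.60 ± 0.12 (adjusted p = 0.00144). In the same step Got2 rose by 0.46 ± 0.07, Slc25a1 by 0.50 ± 0.13, Dlat by 0.34 ± 0.09 and Cs by 0.32 ± 0.07 (adjusted p = 1.4e-05, 0.0114, 0.0117 and 0.0016). The falls from E10.5 to E11 were -0.53 for Ogdh, -0.78 for Got2, -0.35 for Slc25a1, -0.45 for Dlat and -0.55 for Cs (adjusted p = 0.00102, 9.06e-11, 0.0306, 0.000121 and 1.05e-07). They were picked after their values were seen.

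**Figure D3:**
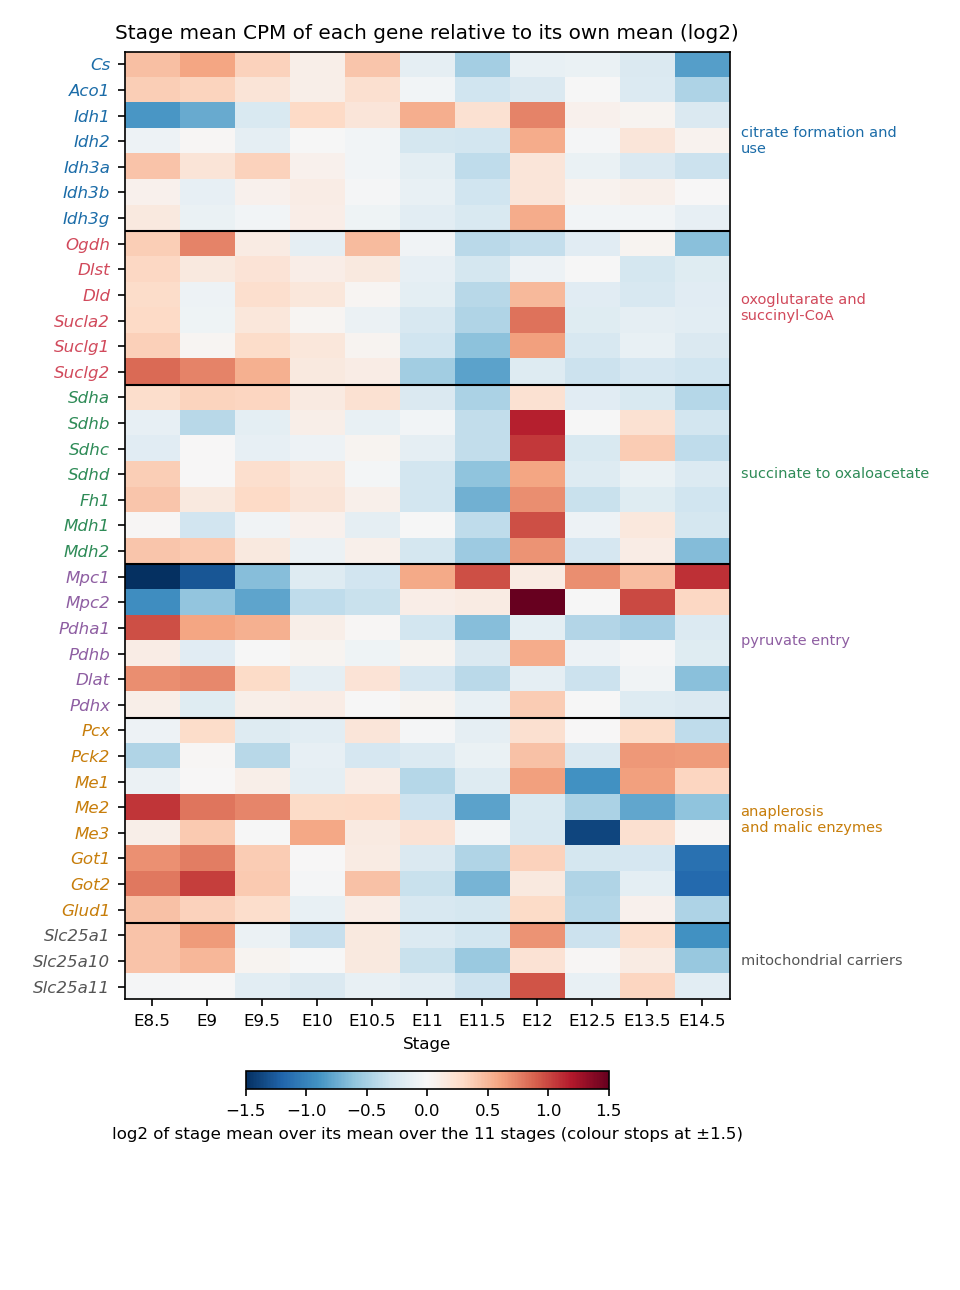
Stage means of the 37 genes (rows, grouped by role) at 11 stages (columns), as log2 CPM relative to the gene's own mean over stages; red is above and blue below that mean, and colours stop at 1.5 on either side. A column of red at E12 covers the 18 genes with their highest mean there, blue is commonest at E11.5 and E14.5, and Mpc1 is dark blue at E8.5 and red at E14.5.

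For 18 of the 37 genes the highest stage mean was at E12, against 19.1% of all genes. For 7 it was at E8.5 and for 7 at E9, against 12.2% and 8.97%. The lowest mean was at E11.5, a stage out of order with E12 and E12.5, for 16 genes and at E14.5 for 13, against 11.6% and 17.4%. The E12 values were not uniform. Sdhb was at 445, 342 and 199.9 CPM in replicates a, b and c of E12, and Mpc2 at 122, 61.3 and 44.3 CPM, whereas at E12.5 they were at 148, 134 and 154 CPM and at 24.0, 29.2 and 26.5 CPM. For both, every E12 library was above every E12.5 library and replicate a was far above replicate c. Replicates ran in the order a, b, c from high to low for 15 of the 18 genes, for 17 of all 37 and for 28.4% of all genes. The 18 were picked by their E12 means, which a high replicate a raises, while the 28.4% covers genes with any highest stage. The count of 15 is therefore a description and cannot be set against that share. The share of counts in ribosomal protein genes ran in the same order, at 8.32%, 6.16% and 4.09%, as did the share in genes shorter than 1500 bases, at 16%, 12.9% and 8.86%. The 18 genes had a median exonic length of 3321 bases and the 14 highest at E8.5 or E9 one of 4724 bases. In E13.5 replicate c, where ribosomal protein genes took 5.79% against 3.5% in the other libraries of that stage, 28 of the 37 genes were higher than in both others, against 43.5% of all genes. With a trend on gene length removed from each library, 13 of the 18 kept their highest mean at E12 and Idh1, Idh3b, Dld, Sdhd and Slc25a1 did not, while Pck2 and Me1 then had theirs there. With scaling by DESeq2 size factors the count was 18 and with totals alone 16.

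The 14 genes highest at E8.5 or E9 all fell from E8.5 to E14.5, with a median of -1.07: Cs, Aco1, Idh3a, Ogdh, Dlst, Suclg2, Sdha, Pdha1, Dlat, Me2, Got1, Got2, Glud1 and Slc25a10. Grouping by the stage of the highest mean uses the same levels, so this is a description. Of the 18 highest at E12, 9 were lower and 2, Idh1 and Mpc2, higher, with a median of -0.29. With the E12 libraries set aside, the highest mean was at E8.5 for 15 genes, at E9 for 8 and at E13.5 for 9, against 17.8%, 10.2% and 14% of all genes.

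Ratios of 2 genes within a library hardly depend on how libraries are scaled, and 14 pairs of isoenzymes, subunits or opposed enzymes were compared in this way, as the log2 ratio of CPM per kb. All 14 ratios varied over the stages (permutation test of the F statistic with 100000 resamples, which has no direction). Of all single genes 95.3% differed over the stages, and other pairs of genes were not compared. Variation of a ratio can therefore not be called a trait of these pairs. For 11 pairs p was 0.00001, the smallest these permutations can give, and the largest adjusted p was 0.00008. Between 2 stages of 3 libraries an exact permutation test cannot go below 0.1, so the differences between ends are given without a test. Every value is a mean ± SD with n = 3.

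For 3 of 4 pairs of a cytosolic and a mitochondrial isoenzyme, the mean ratio was higher at the last stage than at the first with no overlap of libraries. Idh1/Idh2 was -1.44 ± 0.09 at E8.5, 0.16 ± 0.07 at E11 and -0.91 ± 0.15 at E14.5, so the cytosolic gene was the higher of the pair per kb at E11 only. Mdh1/Mdh2 went from 0.33 ± 0.07 to 1.13 ± 0.06, or from 1.26 to 2.18 as a linear ratio, with E8.5 libraries at 0.26 to 0.40 and E14.5 libraries at 1.09 to 1.19. Me1/Me2 went from -2.83 ± 0.11 to -0.75 ± 0.10, from 0.14 to 0.596 as a linear ratio. Got1/Got2 moved little between the ends, at -0.92 ± 0.10 and -0.78 ± 0.19 with overlapping libraries.

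Subunits of one complex did not keep a fixed ratio. Pdha1/Pdhb went from 1.51 ± 0.03 at E8.5 to 0.23 ± 0.04 at E11.5 and 0.63 ± 0.04 at E14.5. Dlat/Pdhx went from 0.79 ± 0.11 to -0.24 ± 0.26, Sdha/Sdhb from 0.44 ± 0.07 to -0.10 ± 0.08 and Idh3a/Idh3b from -1.24 ± 0.03 to -1.93 ± 0.04, in each case without overlap of the libraries of the ends. Ogdh/Dlst went from -0.03 ± 0.03 to -0.53 ± 0.03, and was highest at E9 (0.51 ± 0.10). For the ligase subunits that differ in nucleotide, Suclg2/Sucla2 went from 0.05 ± 0.09 to -0.64 ± 0.10. Idh3a/Idh3g went from -1.31 ± 0.09 to -1.78 ± 0.12, Sdhc/Sdhd from -2.23 ± 0.05 to -1.87 ± 0.01, and Mpc1/Mpc2 from -1.23 ± 0.47 to 0.06 ± 0.13, with the doubt about Mpc1 given before. The opposed enzymes Pcx/Pck2 began with a ratio of 1.34 ± 0.12, still stood at 1.18 ± 0.12 at E12.5 and ended with -0.06 ± 0.11. As a linear ratio per kb, pyruvate carboxylase was thus 2.53 times Pck2 at E8.5 and 0.959 times at E14.5. The height of such a ratio depends on the exonic lengths used, while its change between stages does not. Not divided by length, the means of Pcx and Pck2 were 30.3 and 19.7 CPM at E8.5, and 24.4 and 41.7 CPM at E14.5.

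**Figure D4:**
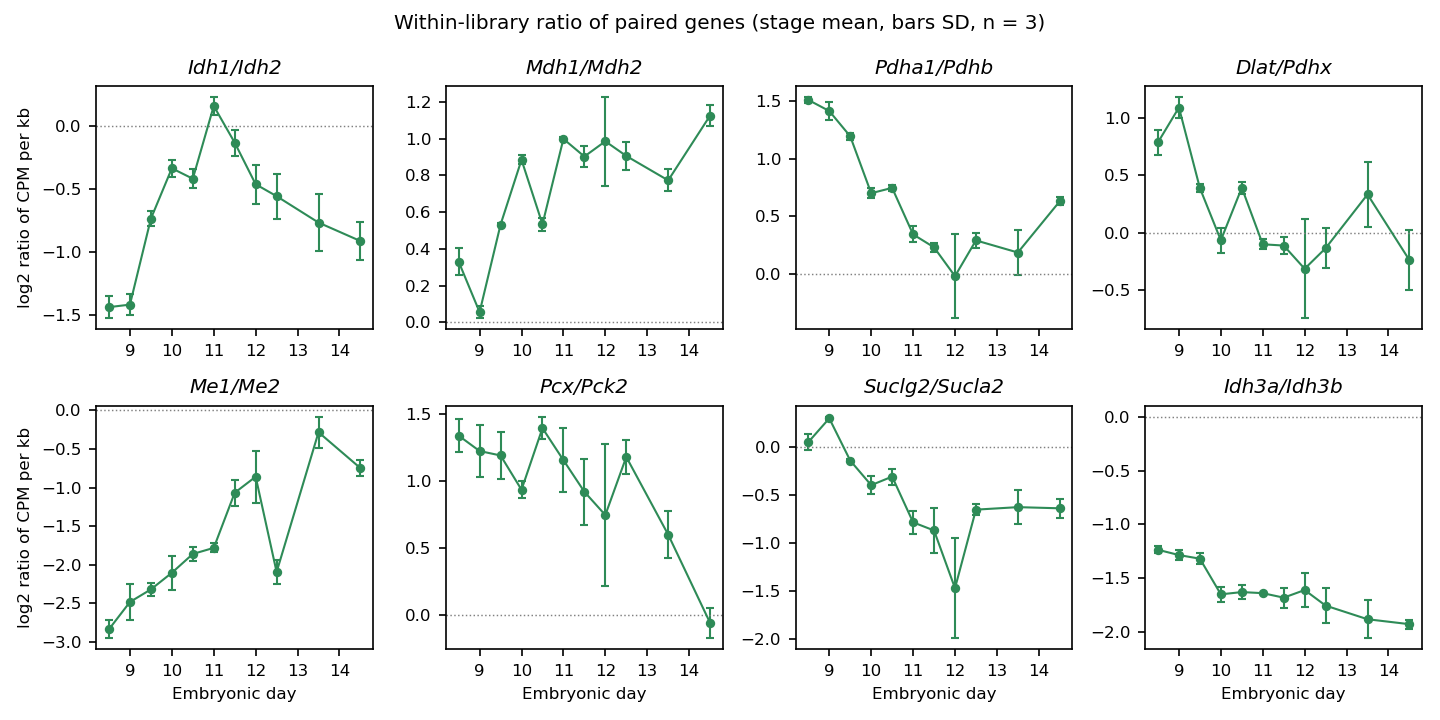
Within-library log2 ratios of CPM per kb for 8 of the 14 pairs (vertical axes) against embryonic day; points are stage means, bars SD, n = 3, and the dotted line marks equal levels. Idh1/Idh2 rises to 0.16 at E11 and falls again, Pdha1/Pdhb declines from 1.51, and Pcx/Pck2 drops to -0.06 at E14.5; bars are widest at E12 for Mdh1/Mdh2, Pdha1/Pdhb, Dlat/Pdhx, Me1/Me2, Pcx/Pck2 and Suclg2/Sucla2.

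Genes that act beside the 37 were counted in the comparison of E14.5 with E8.5, read against the same 41.1% higher and 33.5% lower. Of 7 kinases and phosphatases that switch pyruvate dehydrogenase off and on, 3 rose (the kinases Pdk4, 1.76 ± 0.53, and Pdk2, 1.72 ± 0.17, and the phosphatase Pdp1, 1.57 ± 0.12; adjusted p = 0.00386, 3.40e-10 and 5.07e-13). Pdk4 was near the floor of detection, its mean going from 0.58 to 1.96 CPM. Its lowest library of all stages was at 0, so the size of its rise is uncertain. The kinases Pdk3 and Pdk1 fell and 2 genes did not pass. Of 10 genes of glutamine, glutamate and alanine metabolism 5 fell and 2 rose, with Psat1, a transaminase of serine synthesis, at -1.87 ± 0.06 and the asparagine synthetase Asns at -1.32 ± 0.09 (adjusted p = 3.14e-21 and 1.74e-13). Of 12 genes for lipoate and succinate dehydrogenase assembly 5 fell and none rose, led by Glrx5 (-2.13 ± 0.28) and Iba57 (-1.17 ± 0.12), which serve iron-sulfur clusters, and Sdhaf2 (-0.64 ± 0.10), which loads the flavin onto Sdha (adjusted p = 8.25e-08, 8.63e-10 and 2.61e-06).

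Of 15 tested genes for other cycle reactions and transport 6 fell and 5 rose. The oxodicarboxylate carrier Slc25a21 fell by -3.20 ± 0.45 (adjusted p = 2.83e-07). Among plasma membrane carriers of citrate and dicarboxylates, Slc13a5 rose by 6.30 ± 0.40 (adjusted p = 9.35e-15). Slc13a3 rose by 3.04 ± 0.45 (adjusted p = 6.16e-07). Each of these genes was near the floor of detection at E8.5 or at E14.5, so the sizes of their changes are uncertain. The mean of Slc13a5 went from 0.2003 to 16.21 CPM, and its lowest library of all stages was at 0. The mean of Slc13a3 went from 0.18 to 1.499 CPM, and that of Slc25a21 from 2.211 to 0.2366 CPM. The aspartate-glutamate carriers of the shuttle that uses Got1 and Got2 went opposite ways, Slc25a12 at 1.38 ± 0.09 and Slc25a13 at -2.47 ± 0.10 (adjusted p = 6.98e-15 and 1.03e-19), a pair named after its values were seen. Of 9 tested genes for entry of odd-chain and branched-chain carbon 3 rose and 2 fell, with the cytosolic branched-chain transaminase Bcat1 at -3.03 ± 0.07, Bckdhb at -1.01 ± 0.11 and Pccb at 0.65 ± 0.08 (adjusted p = 6.07e-25, 1.80e-09 and 5.29e-08). Of 10 regulators of mitochondrial genes 7 fell and 2 rose. Mycn fell by -3.33 ± 0.09, the coactivator Pprc1 by -1.38 ± 0.07 and Myc, named after its value was seen, by -1.33 ± 0.10, and the coactivator Ppargc1a rose by 2.23 ± 0.31 (adjusted p = 3.20e-23, 1.83e-16, 2.01e-13 and 1.62e-07). Ppargc1a too started low, its mean going from 1.18 to 5.6 CPM.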

How the data were processed

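Per the file headers, the deposited file is a matrix of raw read counts in whole numbers, 3 columns to a stage. Trimming, alignment and counting used cutadapt 1.9.1, HISAT2 2.0.1 and HTSeq 0.6.1 on GRCm38, per the submitters' processing notes; for annotation release and strandedness, neither is given in the sources used here. The file's exonic lengths (another unit, bases, per the file headers) served levels per kb and the length correction. GENCODE M21 gave symbols for 55141 of 55401 genes. The columns end in a, b or c; which replicate number of the labels each letter stands for is not known, so letters only name libraries.

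Counts were tested with edgeR 4.0.16 (R 4.3.3): filterByExpr given the stages, TMM factors (0.797 to 1.175), a mean per stage over all 33 libraries, 22 residual degrees of freedom, an F-test over stages, contrasts, and Benjamini-Hochberg adjustment over 20073 genes. Standard errors were derived from each contrast's F statistic and are approximate. CPM came from the same factors, and log2 ratios used a prior count of 2. On simulated data of the E14.5 and E8.5 comparison (19167 genes) the fit recovered 53.7% of 67 genes changed 1.5-fold, 79.1% of 67 changed 2-fold and 98.5% of 66 changed 4-fold, with 7 false calls. No other simulated gene changed between stages, whereas 74.6% of genes were called in this comparison of the real data. The recovery and false calls may therefore differ there. No pair of libraries within a stage agreed within sampling noise (chi-square per gene of 1.85 or more).

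The 37 genes, the lists and the tests were chosen with earlier results of these data known. Values were given for Cs, Slc25a1, Aco1, Idh1, Idh2, Pcx, Pck2, Mpc1, Mpc2, Pdha1, Ogdh, Mdh1 and Mdh2, the 4 largest rises and falls in each contrast, genes against the majority, and the 3 largest changes past the threshold of each related list; exceptions are named as such, and 1 gene of a related list that the rule would name is not reported here. Copies were searched with BLAST+ 2.17.0 (95% identity over 200 bases): 9 of the 37 genes had one, 6 of them a pseudogene, and except for Mpc1 and Suclg2 the counts of these were at most 4.76% of the gene's. Reads that match a gene and its copy may have been left out of both, which the counts of a copy do not show. By the annotation, 14 of the 37 genes overlap a gene on the other strand, and reads of such partners may not be told apart. Epidermis genes were listed as well: 5 of 7 rose and 2 fell from E8.5 to E14.5. Their summed level was 227 to 246 CPM at E8.5 and 1098 to 1260 CPM at E14.5. Alternatives were DESeq2 1.42.0 (its test and its size factors), library totals alone, other filters, a replicate block, a gene length trend removed, other sets of libraries, each library left out, and a prior count of 0.5 for ratios.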

Additional observations from a re-analysis of the deposited data

How the results depend on the processing

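Counts of the 37 genes called were recomputed under each alternative. With library totals alone 8 were higher at E14.5 against E8.5, 8 higher and 6 lower at E10.5 against E8.5 and 8 lower at E14.5 against E12.5. Without a filter on low counts 9 were lower at E14.5 against E12.5, and with a trend on gene length removed 25 were lower at E10.5 against E8.5. With all libraries of E11.5, E12 plus E13.5 left out, as with only the libraries compared, 5 were higher at E10.5 against E8.5 and 2 at E12.5 against E10.5. With library totals alone these reversed sign for E14.5 against E8.5: Idh3b 0.379, Pdhb 0.13, Pdhx 0.121, Pcx 0.121 and Slc25a11 0.294; and for E10.5 against E8.5 Dlst 0.005. The cause was not tested beyond the shift of all genes that this scaling brings.

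Leaving out each library in turn gave 37 genes differing over the stages throughout, 4 to 5 higher and 23 to 27 lower at E14.5 against E8.5, 2 to 3 higher and 10 to 19 lower at E10.5 against E8.5 (10 without E10.5 replicate c), 1 to 2 higher and 13 to 19 lower at E12.5 against E10.5 (2 higher without E12 replicate a), and 4 to 6 higher and 12 to 14 lower at E14.5 against E12.5. All 14 ratios varied in each of these. Of 148 values of single genes, 142 kept their direction and side of the threshold with DESeq2 size factors, 140 with the DESeq2 test, 144 with a stricter filter and 112 with library totals alone. The highest mean was at E12 for 18 genes with DESeq2 size factors, 16 with library totals alone and 15 with a length trend removed, alternatives chosen after seeing the data, as was adding the copies of Mpc1 and Suclg2.

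The letters share only a name: same-letter deviations had a median correlation of -0.003 (lowest -0.582), and 6 of 33 libraries correlated best with their own letter. With a replicate block on the letter the counts were 5 higher and 24 lower, 3 and 15, 1 and 15, and 5 and 14 in the 4 contrasts in the order above, Suclg1 (-0.316, adjusted p = 0.0573) and Mdh2 (-0.324, adjusted p = 0.0524) no longer passing at E10.5 against E8.5 and at E12.5 against E10.5. Depth limits Me3, with 693 counts in all libraries, and Mpc1, with 3142.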
